A study of Mus musculus with 16 samples.

Results

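Zic1, Zic2, Zic4, Neurod1, Neurod2, Cbln1, Cbln3, Gabra6 and Pcp2 are 9 genes known from neurons of the hindbrain, above all from the granule and Purkinje neurons of the cerebellum, a part of the brain that borders the inner ear. They were measured here in whole mouse cochlea through every probe whose only gene symbol in the array annotation is 1 of the 9. This gave 20 probes of the 45101 on the array, and 9 genes of the 18194 that have a probe with a single symbol. The study asked which transcripts differ in the cochlea after a treatment meant to alter epigenetic regulation. All mice were male DBA/2J mice, a strain with early progressive hearing loss, and each array held RNA of 1 whole left cochlea. Daily injections under the skin of MET (L-methionine, a source of methyl groups, 500 mg/kg) with VPA (valproic acid, an inhibitor of histone deacetylases, 300 mg/kg) were given over 8 weeks to the 6 mice of the M+V group, which were 12 weeks old when the cochlea was taken. The 5 control mice, of the same age, were injected with the sodium bicarbonate vehicle instead. The 5 mice of the 4 weeks group were untreated and 4 weeks old.

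Granule neurons are small excitatory neurons packed under the Purkinje cell layer of the cerebellum, and granule cells of a related kind lie in the cochlear nucleus of the brainstem, where the auditory nerve ends. Their axons, the parallel fibres, synapse on the dendrites of Purkinje neurons, the only output neurons of the cerebellar cortex. Zic1, Zic2 and Zic4 are zinc finger transcription factors of granule neurons and their precursors, and Zic genes are also active in the meninges. Neurod1 and Neurod2 are basic helix-loop-helix transcription factors that granule neurons need to mature and survive, and Neurod1 also acts in the developing spiral ganglion, the ganglion of the auditory nerve. Cbln1 is a secreted protein that granule neurons release to hold their synapses on Purkinje neurons together, and Cbln3 assembles with it. Gabra6 is a subunit of the GABA-A receptor found almost solely in granule neurons. Pcp2, also called L7, is a regulator of G protein signalling that marks Purkinje neurons. None of the 9 genes is particular to the brainstem, so a separate list of brainstem neuron genes was measured as well.

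The 250 bases before the annotated start of Gabra6, Neurod1, Cbln3 and Pcp2 are given here because, on the brightest probe of each gene, the signals of the first 3 were high in the same cochleae while that of Pcp2 was not. The dimmer probes of Cbln3 and Pcp2, described with those genes, did not keep to this contrast. Sequences and positions are those of RefSeq on GRCm38.p6, and an entry was matched for 7 of the 9 genes. Gabra6 is transcribed from the minus strand of chromosome 11, and the window spans chr11:42321073-42321322. Neurod1 lies on the minus strand of chromosome 2 (chr2:79456637-79456886), Cbln3 on the minus strand of chromosome 14 (chr14:55884257-55884506) and Pcp2 on the minus strand of chromosome 8 (chr8:3625548-3625797), where Pcp2 is annotated with 4 starts. Capitals mark the E-box CANNTG, the motif of basic helix-loop-helix factors such as Neurod1, and TTGGC, the core motif of NFI factors, on either strand, so that GCCAA is TTGGC on the other strand.
Gabra6: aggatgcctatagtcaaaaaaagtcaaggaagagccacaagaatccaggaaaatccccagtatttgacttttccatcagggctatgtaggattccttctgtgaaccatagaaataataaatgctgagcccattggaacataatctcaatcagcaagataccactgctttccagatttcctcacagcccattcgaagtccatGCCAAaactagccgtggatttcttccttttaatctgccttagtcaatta
Neurod1: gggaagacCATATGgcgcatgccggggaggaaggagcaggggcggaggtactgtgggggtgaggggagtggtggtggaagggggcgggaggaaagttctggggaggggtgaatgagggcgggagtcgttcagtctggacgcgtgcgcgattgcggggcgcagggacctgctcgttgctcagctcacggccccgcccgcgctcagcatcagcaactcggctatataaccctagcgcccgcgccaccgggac
Cbln3: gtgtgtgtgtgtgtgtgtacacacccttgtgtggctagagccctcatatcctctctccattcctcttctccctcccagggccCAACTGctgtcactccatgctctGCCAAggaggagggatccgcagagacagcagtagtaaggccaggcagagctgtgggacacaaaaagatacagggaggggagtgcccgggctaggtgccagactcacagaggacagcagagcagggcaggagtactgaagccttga
Pcp2: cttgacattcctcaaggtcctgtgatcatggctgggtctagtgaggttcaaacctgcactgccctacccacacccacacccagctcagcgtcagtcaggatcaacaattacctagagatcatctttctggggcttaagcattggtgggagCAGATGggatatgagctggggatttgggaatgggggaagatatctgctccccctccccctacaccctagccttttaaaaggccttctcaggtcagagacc
Gabra6 held no CANNTG and 1 TTGGC, which began 49 bases before the start. Neurod1 held 1 CANNTG at 242 bases, and Cbln3 held 1 CANNTG at 168 bases and 1 TTGGC at 145 bases. Pcp2 held 1 CANNTG at 100 bases, which was also the only match there of CAGATG, a form of the E-box that Neurod proteins prefer. Of 32851 promoters of the same length, 66.2% held CANNTG, 14.4% held CAGATG and 41.5% held TTGGC. These motifs are therefore common, and the matches are a description of the windows. Zic1 and Zic4 are neighbours on chromosome 9, on opposite strands, and their annotated spans (91358058 to 91365768 and 91365631 to 91389351) overlap by 138 bases.

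Values are log2 signals, normalised so that every array had the same distribution, with a median of 6.90. Of the 20 probes, 4 reached that median in all 16 arrays, namely both probes of Zic1, the probe of Zic2 and 1 probe of Cbln1. A further 7 lay under it in all 16 arrays, among them all 3 probes of Pcp2. The bioB spike-in control separated the arrays into 8 at a high level (8.91 to 9.62) and 8 at a low level (5.73 to 6.08). The high level held 2 of the 6 M+V arrays (replicates 1 and 2), 1 of the 5 control arrays (replicate 1) and all 5 arrays at 4 weeks, so each difference from 4 weeks is also one of spike-in level for most arrays. The difference between the 3' and 5' probes of Gapdh, a measure of RNA integrity, ran from -0.17 to 0.19 over the 16 arrays.

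Most of the granule neuron genes, though not Zic2, were high in a few individual cochleae and not in a whole group. M+V replicate 6 and control replicates 2, 5 and 3 carried the 4 highest signals of Gabra6 and Neurod1. The same arrays had the highest mean deviation over the 9 genes, a mean that includes Gabra6 and Neurod1 and is not independent of them. It was 0.79 on the log2 scale in M+V replicate 6 and 1.30, 1.15 and 0.62 in control replicates 2, 5 and 3. Control replicate 2 was the highest of the 16 arrays for 6 of the 9 genes and among the highest 4 for 7. Control replicate 5 was among the highest 4 for the same 7 genes, and M+V replicate 6 for 6. Control replicate 4 was among the lowest 4 for 7 of the 9 genes. All 4 high arrays were at the low spike-in level, as was control replicate 4. Because whole cochleae were measured, fewer cells of a type and less RNA per cell cannot be told apart.

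**Figure D1:**
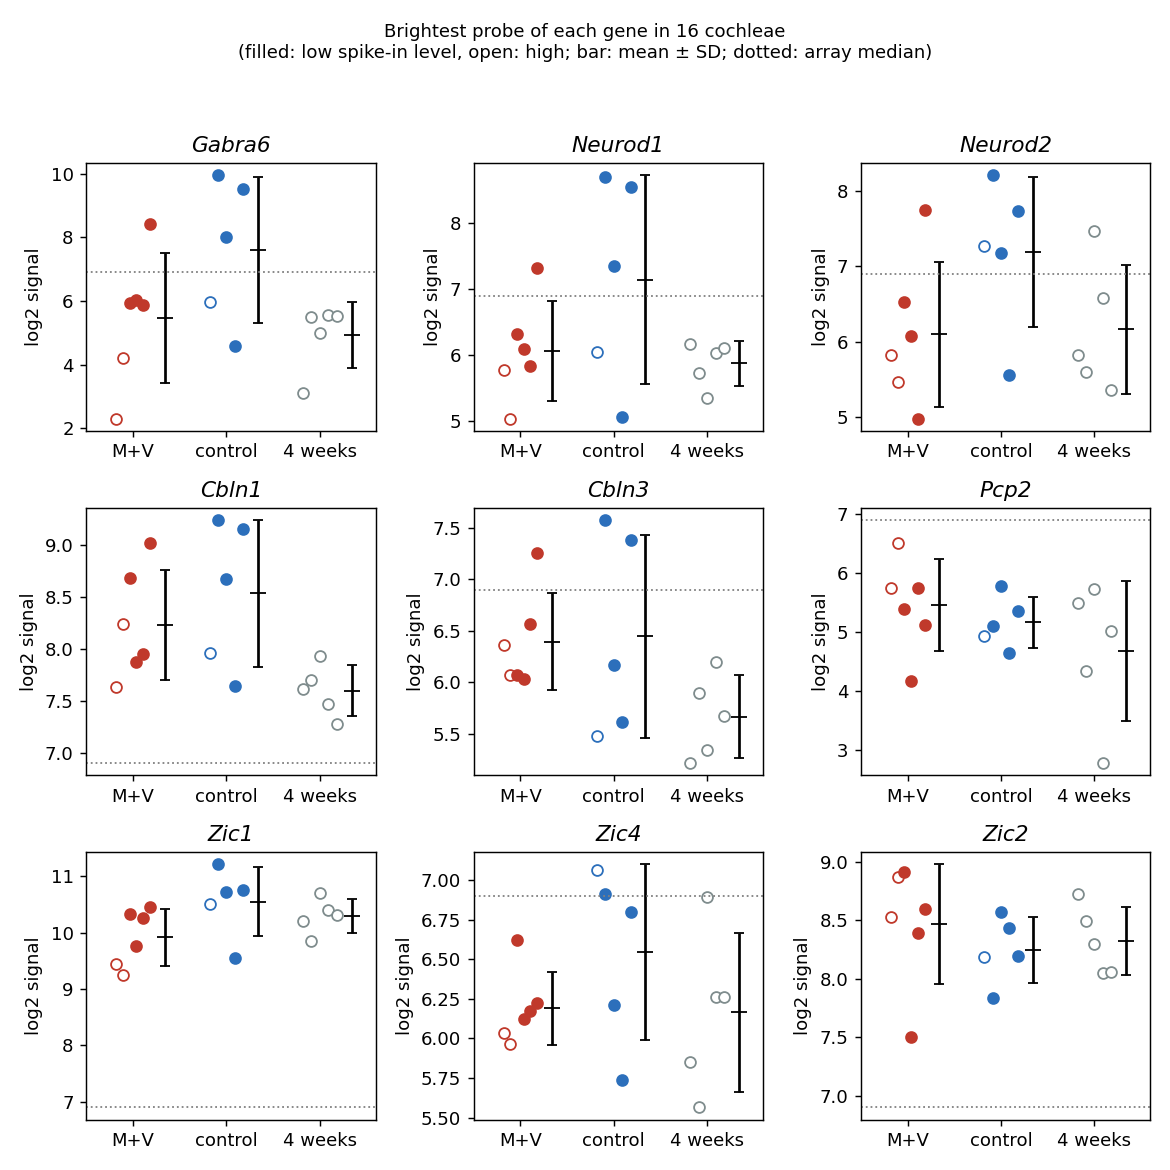
Log2 signal of the brightest probe of each of the 9 genes (y axis) in the M+V, control and 4 weeks groups (x axis). Each point is 1 cochlea, filled at the low and open at the high spike-in level; the bar is the mean ± SD and the dotted line the array median of 6.90. Control arrays of Gabra6 spread from 4.58 to 9.95, while Pcp2 stays under the array median in every array.

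Gabra6 had the widest range of the 9 genes over the 16 arrays, 2.31 to 9.95. Its brightest probe had log2 signals between 2.31 and 8.42 in M+V cochleae (median 5.90), of 5.97, 9.95, 8.01, 4.58 and 9.51 in control cochleae and of 3.12, 5.50, 5.00, 5.57 and 5.52 at 4 weeks. The groups overlapped, with 1 of 6 M+V arrays, 3 of 5 control arrays and none of the arrays at 4 weeks over the array median, and control replicate 4 lay under 4 of the 5 arrays at 4 weeks. Gabra6 averaged 5.47 ± 2.05 in M+V cochleae (SD, n = 6), 7.60 ± 2.30 in control cochleae and 4.94 ± 1.05 at 4 weeks (n = 5 each). M+V differed from control by -2.14 ± 1.08 (SE) on the log2 scale, with an adjusted p of 0.699 by limma and a two-sided exact permutation p of 0.126. Within the low spike-in level the difference was -1.44 (4 against 4 arrays, exact permutation p = 0.343, where the smallest possible is 0.0286). Control cochleae differed from 4 weeks by 2.66 ± 1.13, with an adjusted p of 0.485 by limma and an exact permutation p of 0.0714. At the high spike-in level, where only control replicate 1 could be set against the 5 arrays at 4 weeks, that difference was 1.03.

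**Figure D2:**
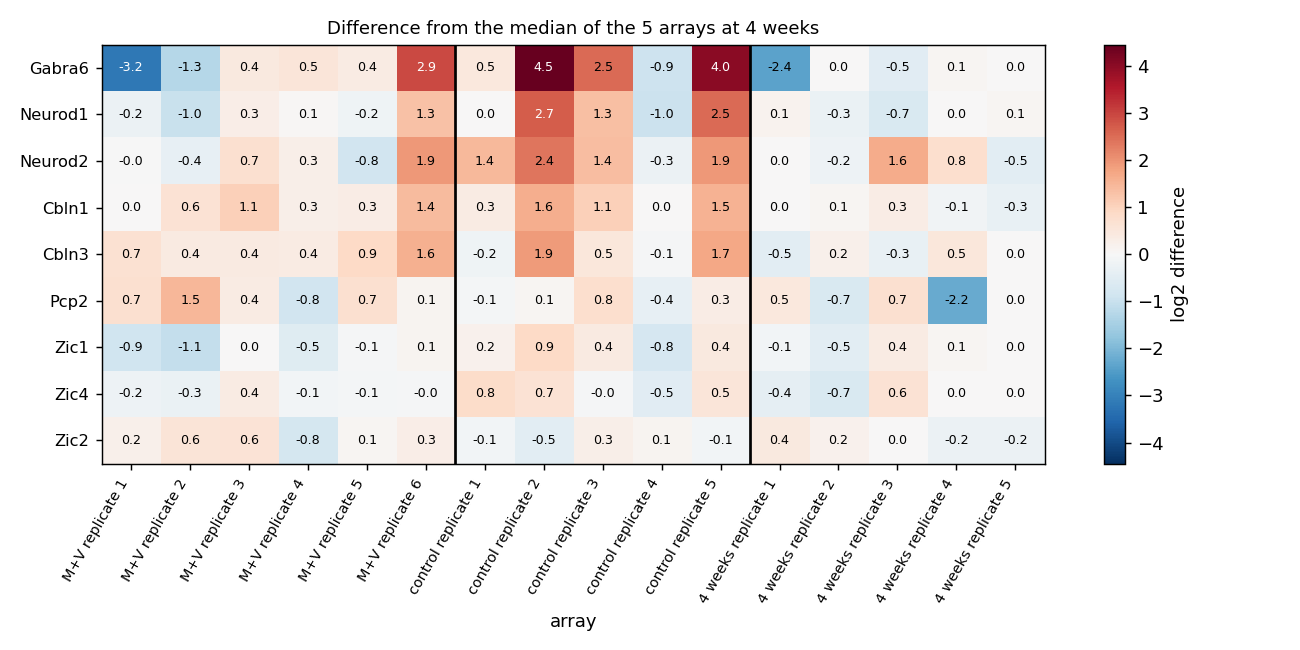
Difference of each array (x axis, M+V, control, 4 weeks) from the median of the 5 arrays at 4 weeks, on the log2 scale, for the brightest probe of the 9 genes (y axis). Control replicates 2 and 5 are the darkest columns, and the rows of Pcp2 and Zic2 do not share the pattern.

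The Neurod genes followed the same arrays. Neurod1 ranged between 5.04 and 7.33 in M+V cochleae (median 5.97), had 6.05, 8.71, 7.35, 5.06 and 8.56 in control cochleae and 6.18, 5.73, 5.36, 6.03 and 6.11 at 4 weeks. Only M+V replicate 6 and control replicates 2, 3 and 5 exceeded the array median, and control replicate 4 lay under all 5 arrays at 4 weeks. M+V differed from control by -1.08 ± 0.58 (SE; adjusted p = 0.721 by limma, exact permutation p = 0.167), and by -1.02 within the low spike-in level (exact permutation p = 0.286). Control differed from 4 weeks by 1.27 ± 0.61 (adjusted p = 0.554 by limma, exact permutation p = 0.135), and by 0.17 at the high spike-in level. The second, dimmer probe of Neurod1 gave differences of -1.55 and 1.44 in these comparisons. Neurod2 ranged between 4.98 and 7.75 in M+V cochleae (median 5.95), had 7.27, 8.21, 7.18, 5.56 and 7.74 in control cochleae and 5.82, 5.59, 7.46, 6.58 and 5.36 at 4 weeks. Its order was less clear than that of Neurod1, since replicate 3 at 4 weeks lay among the highest 4. The M+V mean differed from that of control by -1.09 ± 0.54 (adjusted p = 0.699 by limma, exact permutation p = 0.0952), and by -0.84 within the low spike-in level (exact permutation p = 0.343). The 3 probes of Neurod2 disagreed, at -1.09, -0.12 and 1.36, and the dimmer pair lay under the array median in all 16 arrays.

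The cerebellins, which organise the synapses between parallel fibres and Purkinje neurons, had higher means in both groups at 12 weeks than at 4 weeks on their brightest probes, and no difference passed the adjustment over all probes. Before adjustment, limma passed only Cbln1 in control against 4 weeks. Cbln1 ranged between 7.63 and 9.01 in M+V cochleae (median 8.09), had 7.96, 9.23, 8.67, 7.64 and 9.15 in control cochleae and 7.61, 7.69, 7.93, 7.47 and 7.28 at 4 weeks. Thus 4 of 6 M+V arrays and 4 of 5 control arrays lay above all 5 arrays at 4 weeks. The difference from 4 weeks was 0.63 ± 0.31 for M+V (adjusted p = 0.377 by limma, exact permutation p = 0.039) and 0.94 ± 0.32 for control (unadjusted p = 0.0113 and adjusted p = 0.374 by limma, exact permutation p = 0.0317). At the high spike-in level alone these were 0.34 and 0.37, with 2 M+V arrays and 1 control array. M+V differed from control by -0.30 ± 0.31 (adjusted p = 0.852 by limma, exact permutation p = 0.422), and by -0.30 within the low spike-in level. All 3 probes of Cbln1 were higher in control than at 4 weeks, by 0.94, 1.44 and 0.66, and on the second the 5 control arrays (7.68 to 9.71) did not overlap the 5 arrays at 4 weeks (7.07 to 7.63).

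Cbln3 ranged between 6.03 and 7.26 in M+V cochleae (median 6.22), had 5.48, 7.58, 6.17, 5.62 and 7.38 in control cochleae and 5.22, 5.90, 5.34, 6.19 and 5.68 at 4 weeks. M+V replicate 6 and control replicates 2 and 5 were the 3 arrays over the array median. Between M+V and control the difference was -0.05 ± 0.38 (adjusted p = 0.986 by limma, exact permutation p = 0.916), and -0.20 within the low spike-in level. M+V differed from 4 weeks by 0.73 ± 0.38 (adjusted p = 0.409 by limma, exact permutation p = 0.0173), and by 0.55 at the high spike-in level. Control differed from 4 weeks by 0.78 ± 0.40 (adjusted p = 0.58 by limma, exact permutation p = 0.175). At the high spike-in level the direction was the reverse, since control replicate 1 (5.48) lay under the mean of the arrays at 4 weeks (5.67). The dimmer probe of Cbln3, under the array median in all 16 arrays, went another way: it read 2.10 to 4.61 in M+V cochleae and 4.63 to 5.42 in control cochleae, with no overlap and a difference of -1.35 ± 0.44 (adjusted p = 0.682 by limma). Of the 20 probes it was the only 1 with M+V wholly under control, against 0.437% of all probes. The lowest array on that probe was M+V replicate 6, which was among the highest on the brighter one.

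The Zic genes divided into Zic1 and Zic4 on one side and Zic2 on the other. Zic1 ranged between 9.24 and 10.46 in M+V cochleae (median 10.02), had 10.51, 11.22, 10.72, 9.56 and 10.76 in control cochleae and 10.21, 9.86, 10.70, 10.41 and 10.32 at 4 weeks. Every control array but replicate 4 lay above all 6 M+V arrays, and M+V replicates 1 and 2, both at the high spike-in level, were the lowest of the 16. Zic1 differed between M+V and control by -0.64 ± 0.29 (unadjusted p = 0.0442 and adjusted p = 0.686 by limma, exact permutation p = 0.0931), and by -0.36 within the low spike-in level (exact permutation p = 0.371). The second probe of Zic1 gave -0.72. Zic4 ranged between 5.97 and 6.62 in M+V cochleae (median 6.15), had 7.06, 6.91, 6.21, 5.74 and 6.80 in control cochleae and 5.85, 5.56, 6.89, 6.26 and 6.26 at 4 weeks. The groups overlapped, and the difference of M+V from control was -0.35 ± 0.26 (adjusted p = 0.784 by limma), or -0.13 within the low spike-in level. Zic2 ranged between 7.50 and 8.91 in M+V cochleae (median 8.56), had 8.18, 7.84, 8.57, 8.44 and 8.19 in control cochleae and 8.72, 8.49, 8.30, 8.05 and 8.05 at 4 weeks. Control replicate 2, the highest array for Zic1, was the second lowest for Zic2, and M+V differed from control by 0.22 ± 0.23 (adjusted p = 0.855 by limma), or by 0.09 within the low spike-in level.

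Pcp2, the Purkinje neuron gene, did not follow the granule neuron genes on its brightest probe. It ranged between 4.18 and 6.51 in M+V cochleae (median 5.57), had 4.94, 5.11, 5.78, 4.65 and 5.35 in control cochleae and 5.49, 4.35, 5.73, 2.79 and 5.02 at 4 weeks. The highest array was M+V replicate 2, which was among the lowest 4 for Gabra6, Neurod1, Neurod2, Zic1 and Zic4. Between M+V and control Pcp2 differed by 0.29 ± 0.49 (adjusted p = 0.918 by limma, exact permutation p = 0.494), and by -0.11 within the low spike-in level. One dimmer probe was higher in control than at 4 weeks by 2.00 ± 0.83 (adjusted p = 0.475 by limma), with control arrays between 4.01 and 6.66 and arrays at 4 weeks between 0.50 and 4.85. Its highest 3 arrays were M+V replicate 6 (5.51) and control replicates 2 and 5 (6.66 and 5.69), which were also the highest 3 for Gabra6. All 16 arrays lay under the array median on this probe.

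Across the 9 genes, 0 of 20 probes passed an adjusted p of 0.05 in limma in any of the 3 comparisons. Over all 45037 probes tested, 0% passed for M+V against control, 0.704% for M+V against 4 weeks and 0.211% for control against 4 weeks. The methods' t-test also gave 0 of 20 in each after adjustment, and at the cutoffs of the study, described next, it gave 1, 2 and 3 of 20 in the same order. By an unadjusted p under 0.05 in limma the counts were 4, 0 and 7 of 20 in the same order, where 7.25%, 14.1% and 9.27% of all probes passed. At the cutoffs of the study, a fold above 1.5 with p under 0.05 before adjustment, 4 of 20 probes were lower in M+V than in control and 0 higher, where 1.97% of all probes were lower. These 4 were 1 probe each of Zic1, Neurod1, Gabra6 and Cbln3, and for the last 3 it was the dimmer one. The count was 1 within the low spike-in level and 3 with the spike-in level in the model. It was 9 without M+V replicate 6, 10 without control replicate 4, and 2 without M+V replicate 4 or any of control replicates 2, 3 and 5. By direction alone, 15 of the 20 probes were lower in M+V than in control, against 47.9% of all probes, and probes of 1 gene share its transcript.

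Control against 4 weeks gave 7 of 20 probes that were higher at the same cutoffs and 0 that were lower, where 2.06% of all probes were higher. The 7 were all 3 probes of Cbln1, both of Gabra6, and 1 each of Neurod1 and Pcp2. This count was 1 with the spike-in level in the model. It was 3 without control replicate 2, 4 without control replicate 5 and 11 without control replicate 4. As above, no share of all probes is given for counts under other settings or without 1 array. In this comparison 2 of 20 probes, 1 of Cbln1 and 1 of Gabra6, were higher with no overlap between the groups, against 1.23% of all probes. M+V against 4 weeks gave 0 of 20 probes at these cutoffs, where 6.04% of all probes passed in either direction, 2 without M+V replicate 1 or 4 or control replicate 2, and 1 without M+V replicate 5 or control replicate 4. It shares the arrays at 4 weeks with the comparison before, and the M+V arrays with the first. With the brightest probe of each gene, the median difference over the 9 genes was -0.35 for M+V against control, 0.19 for M+V against 4 weeks and 0.78 for control against 4 weeks, beside medians of 0.012, 0.0059 and -0.00098 over all probes.

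**Figure D3:**
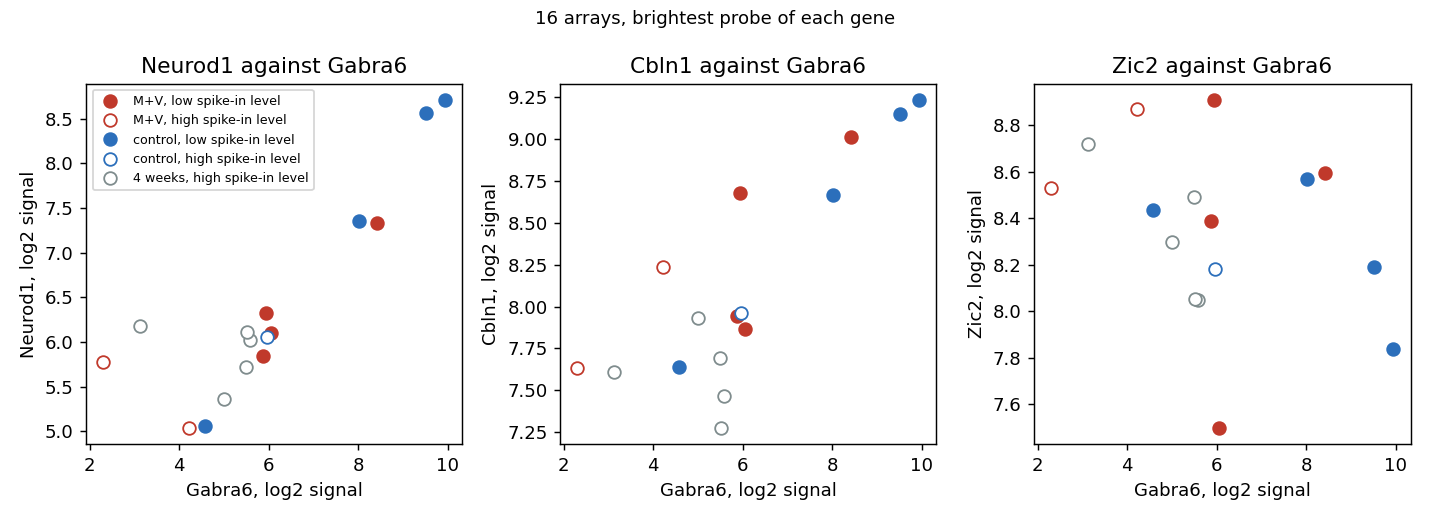
Log2 signal of Neurod1, Cbln1 and Zic2 (y axes) against that of Gabra6 (x axes) in the 16 arrays, coloured by group (M+V, control, 4 weeks) and filled at the low spike-in level. Neurod1 and Cbln1 run with Gabra6 among the filled points only, and Zic2 does not.

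Gabra6, Neurod1, Neurod2, Cbln1, Cbln3, Zic1 and Zic4 went together from cochlea to cochlea at the low spike-in level. Zic2, also a granule neuron gene, did not go with them. Of the 36 pairs of the 9 genes, 27 had a Pearson r above 0 over the 16 arrays, with a median of 0.49. Gabra6 and Neurod1 had r = 0.86 (permutation p = 3e-05, adjusted over the 36 pairs 0.00108) and a Spearman rho of 0.77 (permutation p = 0.00088, adjusted 0.0106). Without control replicates 2 and 5, the arrays farthest out, r was 0.70. Gabra6 and Cbln1 had r = 0.81 (permutation p = 0.00016, adjusted 0.00288), rho = 0.72 (permutation p = 0.00223, adjusted 0.0161), and r = 0.65 without the same arrays. These relations held within the low spike-in level, at r = 0.99 for Neurod1 and 0.91 for Cbln1 over 8 arrays, and did not within the high level, at r = 0.11 and -0.04 over 8 arrays. Over all 36 pairs the median r was 0.75 within the low level and -0.06 within the high level. The neighbours Zic1 and Zic4 were related in both, at r = 0.83 and 0.66, beside 0.73 over all arrays (permutation p = 0.00145, adjusted 0.00373; rho = 0.81, permutation p = 0.00026, adjusted 0.00576; r = 0.77 without M+V replicates 1 and 2). Gabra6 was not related in this way to Pcp2 (r = -0.09, permutation p = 0.744, adjusted 0.841; rho = -0.23, permutation p = 0.391, adjusted 0.539; r = -0.17 without control replicates 2 and 5) or to Zic2 (r = -0.35, permutation p = 0.185, adjusted 0.302; rho = -0.38, permutation p = 0.145, adjusted 0.248; r = -0.24 without M+V replicate 4 and control replicate 2). All arrays share 1 normalisation, and the pairs were chosen with earlier results known.

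The genes most like each of 4 of the 9 were sought by Pearson r over the 16 arrays. The search covered 11787 other genes whose mean signal was at or over the array median. Genes as dim as Gabra6 and Pcp2, whose own means lay under it, could not be found. Each r given is among the highest of 11787 over few arrays, and none was tested. Closest to Cbln1 were Hsd17b6 (r = 0.87), Sfxn5 (0.85), Mtus2 (0.85), Cdc42ep2 (0.84) and Mpp3 (0.82). Hsd17b6, an enzyme of steroid metabolism, had log2 signals of 8.14 to 9.50 in M+V cochleae, 8.50 to 9.49 in control cochleae and 7.46 to 8.04 at 4 weeks, so that neither group at 12 weeks overlapped the third. Closest to Gabra6 were Apln (0.82), Tmed7 (0.81), Larp6 (0.81), Cyfip2 (0.80) and Dab2ip (0.80). Apln, which encodes the peptide hormone apelin, spanned a far smaller range than Gabra6, at 7.19 to 7.91 in M+V cochleae, 7.63 to 8.08 in control cochleae and 7.37 to 7.83 at 4 weeks. Closest to Zic1 were Psd3 (0.87), Myt1l (0.84), Zfp87 (0.84), A930013F10Rik (0.83) and Sphkap (0.83). Myt1l, a transcription factor of neurons, read 6.34 to 8.04 in M+V cochleae, 7.16 to 8.15 in control cochleae and 6.85 to 7.86 at 4 weeks. Closest to Pcp2 were Mllt1 (0.75), Xrcc5 (0.71), G6pc3 (0.70), Vti1a (0.70) and Gstz1 (0.69), genes known from many cell types.

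Lists of other marker genes were set beside the 9 genes, with the brightest probe of each gene. On these probes no gene of the lists passed the adjusted p in limma in any comparison. Over all probes of the listed genes, a dimmer probe each of Hoxb3 and Ogn passed for M+V against 4 weeks. The counts that follow are at the cutoffs of the study. Of 11 other granule neuron genes, 3 were higher in control than at 4 weeks (Pax6, Barhl1 and Kcnc1) and 1, Cntn2, was lower in M+V than in control. The next brightest probe of Pax6 went the other way, averaging 5.21 in M+V cochleae, 3.62 in control cochleae and 5.46 at 4 weeks, and the dimmer probe of Barhl1 differed between control and 4 weeks by -0.53 (adjusted p = 0.905 by limma). Over the list, with the brightest probes, the median difference was -0.36 for M+V against control and 0.55 for control against 4 weeks. Fat2, a cadherin of parallel fibres, read 6.77 to 8.72 in M+V cochleae, 7.32 to 8.26 in control cochleae and 7.52 to 8.34 at 4 weeks. Its highest 4 arrays were M+V replicates 2, 5 and 4 and replicate 4 at 4 weeks. Gabrd, a GABA-A receptor subunit that pairs with Gabra6, and Grin2c, an NMDA receptor subunit of mature granule neurons, lay under the array median in all 16 arrays, as did Pax6 and Barhl1. The highest 4 arrays of Gabrd were control replicates 4 and 1, M+V replicate 5 and replicate 1 at 4 weeks. Neither Fat2 nor Gabrd thus had any of the 4 high arrays of Gabra6 among its own highest 4. Grin2c read 2.69 to 5.71 in M+V cochleae, 2.78 to 6.52 in control cochleae and 2.91 to 4.76 at 4 weeks, and its highest 3 arrays were M+V replicate 6 and control replicates 5 and 2. The list as a whole was highest in M+V replicate 6 and control replicates 2 and 5, by mean deviations of 0.50, 0.48 and 0.46. By summed signal the order differed, with M+V replicate 3 (13842) and control replicate 3 (10737) the highest and M+V replicate 6 at 8463. That sum is led by the brightest gene of the list, Calb2, with a mean log2 signal of 12.31 and 13.19 in M+V replicate 3. Of 9 other Purkinje neuron genes, 0 passed in any comparison. Car8, which binds the IP3 receptor in Purkinje neurons, was highest in M+V replicate 2, at 10.09, as Pcp2 was on its brightest probe. The list as a whole was not high there, with a mean deviation of -0.34. It was highest in M+V replicate 3 and control replicates 2 and 1, at 0.48, 0.47 and 0.46. Ppp1r17 was highest in control replicate 2. Ppp1r17, a phosphatase inhibitor of Purkinje neurons, lay under the array median in all 16 arrays, and Calb1, which the cochlea also expresses, was over the array median in all 16 arrays.

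Of 8 brainstem neuron genes, only Slc6a5 passed the same cutoffs, and the list as a whole did not go its way. For M+V against control, 5 of the 8 were above 0, with a median difference of 0.33. For control against 4 weeks, 4 were above and 4 below 0, with a median of 0.14. Slc6a5, the glycine transporter of inhibitory neurons in the brainstem and spinal cord, read 1.34 to 6.32 in M+V cochleae (median 3.97), 4.41 to 8.72 in control cochleae and 0.30 to 4.32 at 4 weeks. Control did not overlap 4 weeks, and differed from it by 4.50 ± 0.95 (unadjusted p = 0.000295 and adjusted p = 0.0825 by limma). The signals were low, at or under 4 in 7 of the 16 arrays, so the size of this difference is uncertain. The second, dimmer probe of Slc6a5 averaged 3.51 in M+V cochleae, 3.11 in control cochleae and 2.87 at 4 weeks, and differed between control and 4 weeks by 0.24 (adjusted p = 0.968 by limma). For M+V against control the difference on the brighter probe was -2.73 ± 0.91 (unadjusted p = 0.00941 and adjusted p = 0.682 by limma). The highest 4 arrays of the brighter probe were M+V replicate 6 and control replicates 2, 1 and 5, so it shared 3 of the 4 high arrays of Gabra6. Each of the 4 hindbrain Hox genes listed had 1 of those high arrays among its own highest 4. Hoxb3 read 6.35 to 7.72 in M+V cochleae, 5.91 to 6.55 in control cochleae and 5.89 to 6.56 at 4 weeks, and Hoxa5 reached the array median in 1 array. The dimmer probe of Hoxb3, under the array median in all 16 arrays, read 2.08 to 4.19 in M+V cochleae, 2.90 to 4.51 in control cochleae and 4.03 to 5.43 at 4 weeks. On it M+V differed from 4 weeks by -2.04 ± 0.42 (adjusted p = 0.0394 by limma), whereas the brighter probe gave 0.47. Of 7 forebrain neuron genes, 5 lay under the array median in all 16 arrays, among them Neurod6, Tbr1 and Emx1, and Neurod6 was at the lowest value allowed, a signal of 1, in 4 arrays.

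**Figure D4:**
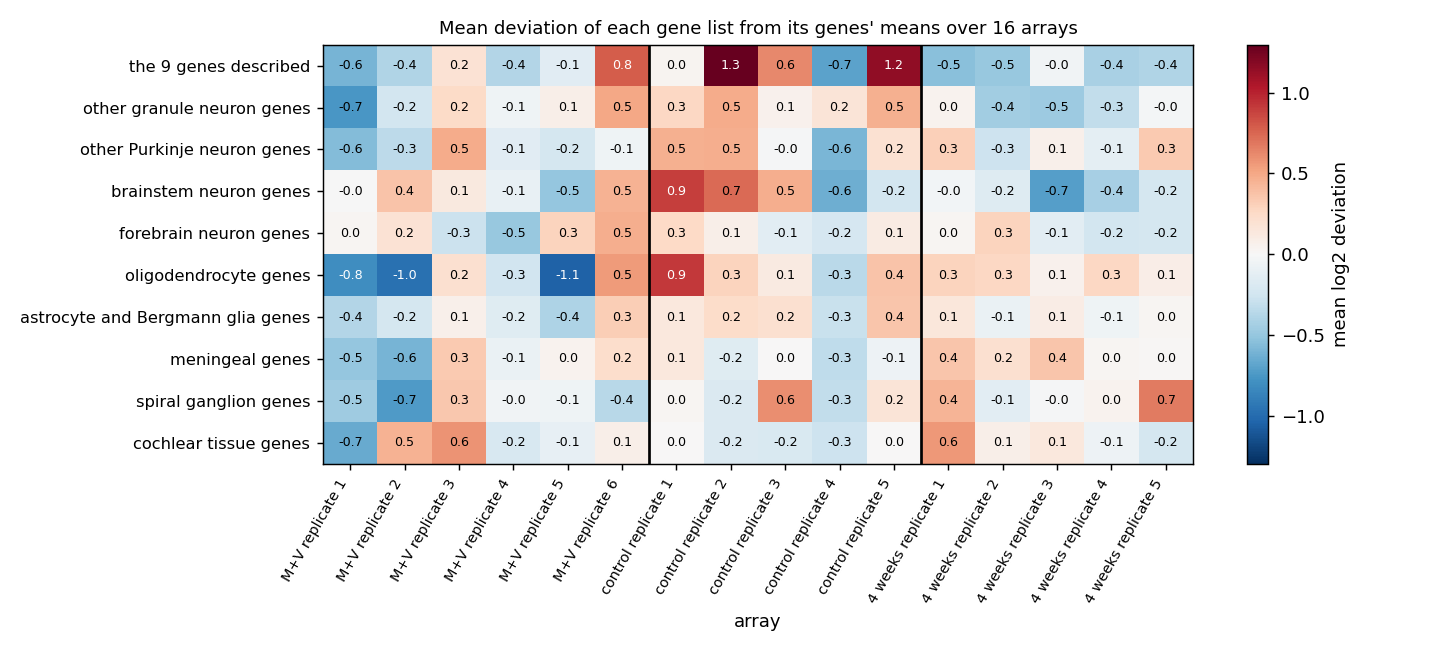
Mean deviation of 10 gene lists (y axis) from their genes' own means over the 16 arrays, on the log2 scale, in each array (x axis, M+V, control, 4 weeks). The 9 genes described reach 1.30 in control replicate 2, where the oligodendrocyte list reads 0.28, and the cochlear list -0.19.

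By mean deviation, the astrocyte list was highest in the same 4 arrays in which Gabra6 was high. The oligodendrocyte list had M+V replicate 6 and control replicate 5 among its highest 4. Of 9 oligodendrocyte genes, 2 were lower in M+V than in control (Mobp and Ermn) and 2 lower in M+V than at 4 weeks (Mog and Ugt8a). Ugt8a was also lower in control than at 4 weeks. Summed signals of the list were 4806 to 10115 in M+V cochleae, 6765 to 12640 in control cochleae and 9318 to 12194 at 4 weeks. Mobp, a myelin protein of oligodendrocytes, read 9.15 to 11.87 in M+V cochleae, 10.68 to 11.84 in control cochleae and 10.75 to 11.45 at 4 weeks, and was highest in M+V replicate 6. M+V replicates 5, 2 and 1 were the lowest arrays for oligodendrocyte genes (mean deviations -1.05, -0.97 and -0.81), and control replicate 1 was the highest (0.92) but not high for the 9 genes (0.04). Mog, a surface protein of myelin, read 2.48 to 6.92 in M+V cochleae, 5.59 to 6.64 in control cochleae and 6.34 to 6.99 at 4 weeks, and Opalin 5.23 to 6.31, 5.16 to 8.77 and 5.38 to 6.45 in the same groups. Of 9 astrocyte and Bergmann glia genes, 8 were over the array median in all 16 arrays and 2, Slc1a2 and Slc7a10, were lower in M+V than in control. Slc1a2, a glutamate transporter, read 9.18 to 10.69 in M+V cochleae, 9.43 to 10.77 in control cochleae and 9.42 to 10.26 at 4 weeks, with M+V replicate 6 and control replicates 1, 2 and 5 the highest, while Gfap and Aqp4 passed in no comparison. The summed signals of the astrocyte list were 5990 to 10073 in M+V cochleae, 6368 to 9319 in control cochleae and 7400 to 8850 at 4 weeks. Its mean deviations were 0.32 in M+V replicate 6 and 0.24, 0.36 and 0.21 in control replicates 2, 5 and 3. These were its highest 4 arrays by sum as well. Of 7 meningeal genes 0 passed on the brightest probe, and Slc22a6, Slc6a13 and Slc13a4 had their highest array at 4 weeks. The dimmer probe of Ogn, a proteoglycan of connective tissue, read 11.03 to 11.65 in M+V cochleae, 11.15 to 11.73 in control cochleae and 11.88 to 12.57 at 4 weeks, and M+V differed from 4 weeks by -0.86 ± 0.16 (adjusted p = 0.0267 by limma), against -0.27 on the brighter probe. The part of any of these tissues in the signals of the 9 genes was not tested.

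The arrays carried the markers of the cochlea itself. Of 11 cochlear tissue genes, 9 were over the array median in all 16 arrays, and Slc26a5, the motor protein of outer hair cells, lay under it in all. Coch, the matrix protein of spiral ligament fibrocytes, read 14.84 to 15.22 in M+V cochleae, 14.89 to 14.97 in control cochleae and 15.06 to 15.42 at 4 weeks. Otos, also from fibrocytes, read 13.82 to 14.76 in M+V cochleae, 14.48 to 14.58 in control cochleae and 14.71 to 14.88 at 4 weeks. Otor, a secreted protein of cochlear fibrocytes, read 11.61 to 13.77 in M+V cochleae, 12.31 to 13.09 in control cochleae and 13.23 to 13.51 at 4 weeks, and control differed from 4 weeks by -0.70 (adjusted p = 0.536 by limma). Of 8 spiral ganglion genes, Prph, a neurofilament of type II neurons, was lower in M+V than at 4 weeks, at 5.37 to 6.93 in M+V cochleae, 5.94 to 8.98 in control cochleae and 5.87 to 9.66 at 4 weeks. Its 3 dimmer probes gave -0.30, 1.04 and 1.11 for this comparison. Gata3 and Ntrk3, which mark the same ganglion, did not pass in any comparison, and the highest arrays of this list, replicate 5 at 4 weeks and control replicate 3 (mean deviations 0.68 and 0.61), included only 1 of the 4 arrays in which Gabra6 was high.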

How the data were processed

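Whole left cochleae of 16 mice (M+V 6, control 5, 4 weeks 5) were measured on Affymetrix mouse arrays. The authors extracted signals with GCOS and MAS5 (versions not given in the sources used here) and quantile-normalised them in R, and the values used are the log2 values that the authors deposited. Signals under 1 (0.869% of values) were raised to 1, and 64 control probes were left out. Genes were named from the platform annotation (1 symbol for 34958 probes, several for 932, none for 9211). The 3 group means were fitted together over 45037 probes with limma 3.58.1 in R 4.3.3, two-sided, with Benjamini-Hochberg adjustment over all of them. No filter on low values was used, since it would have kept a gene only through the group where it is high; 5 of the 20 probes reached the array median in every array of a group. Single genes were also compared by exact permutation of arrays (smallest p 0.00216 for 6 against 5, 0.00794 for 5 against 5), and correlations by 100000 permutations. The fit was tested on simulated data.

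A gene was described from its brightest probe. Beside the 9 genes, the first 3 genes with a probe in each marker list were named. So were the 5 genes most like each of Cbln1, Gabra6, Pcp2 and Zic1. Calb2, Cntn2, Pax6, Barhl1, Kcnc1, Ermn, Ugt8a, Slc7a10, Ogn and Slc26a5 were named after their values were seen. The genes and lists were chosen with earlier results of these data known. Same-numbered arrays of different groups did not deviate together (median r = 0.0102 in 15 pairs, 0 over 0.1), and the arrays were treated as unpaired. Alternatives were a filter, log2(signal + 32), cyclic loess, an intensity trend, the methods' t-test, 2 groups per fit, a replicate block, the spike-in level as a block or alone, the mean over probes, and leaving out each array. The number of arrays limits the precision.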

Additional observations from a re-analysis of the deposited data

Results flagged for a closer look

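Among the 9 genes and 3 groups, 27 sets of arrays were checked for a single array far from the others of its group, and chance alone flags about 1 in 20 such sets. Zic2 in M+V replicate 4 had a log2 signal of 7.50, while the other M+V arrays read 8.39 to 8.91. Gabra6 in replicate 1 at 4 weeks had a log2 signal of 3.12, while the other arrays at 4 weeks read 5.00 to 5.57. Control replicates 2 and 5, the highest for Gabra6, did not stand apart in this way, since control replicate 3 lay between them and the rest.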

How the results depend on the processing

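The count of probes that passed the adjusted p stayed at 0 of 20 in all 3 comparisons under every alternative and without any 1 array. The counts at the cutoffs of the study moved. No share of all probes is set beside the counts under the alternatives or without 1 array. Whether only the 20 probes moved or all probes did cannot be told from these counts. For M+V against control (4 of 20 as reported) they were 2 with the filter on low values, 7 with log2(signal + 32), 8 with an intensity trend, 1 with the methods' t-test, 2 with 2 groups in the fit and 1 at the low spike-in level, and 2 to 10 when 1 array was left out. For M+V against 4 weeks (0) they were 1 with the filter, 1 with the trend, 2 with the t-test, 2 with 2 groups, 2 with the spike-in level as a block and 4 at the high level alone, and 0 to 2 without 1 array. For control against 4 weeks (7) they were 2 with the filter, 3 with the t-test and 1 with the spike-in level as a block, and 3 to 11 without 1 array. With the replicate number as a block they were 8, 1 and 8. That block also takes M+V replicate 6 out of the comparison, since no other array has its number. The numbers do not pair the arrays, and no adjusted call changed.

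Under the alternatives, 232 differences of single genes kept their sign and 17 changed it, none of the 17 past the adjusted p. With the replicate block, the differences of M+V from 4 weeks were -0.064 for Neurod1 and -0.064 for Gabra6. These are the same values as without M+V replicate 6, so they are not a separate check. With the spike-in level as a block, M+V differed from 4 weeks by -0.56 for Neurod1 and -1.36 for Gabra6, M+V from control by 0.032 for Cbln3, and control from 4 weeks by -0.19 for Zic1 and 0.075 for Zic2. At the high level alone, M+V differed from 4 weeks by -0.47 for Neurod1, -1.68 for Gabra6 and -0.16 for Zic4, and control from 4 weeks by -0.19 for Cbln3. At the low level alone, M+V differed from control by -0.11 for Pcp2. With the mean over a gene's probes, M+V differed from control by 0.049 for Neurod2 and -0.28 for Pcp2, M+V from 4 weeks by 0.57 for Neurod2 and -0.32 for Zic4, and control from 4 weeks by -0.15 for Zic4. Without 1 array, signs changed for Zic2 between control and 4 weeks (-0.16 to 0.023), Cbln3 between M+V and control (-0.29 to 0.23), and, between M+V and 4 weeks, Zic4 (-0.12 to 0.21), Neurod1 (-0.064 to 0.39), Neurod2 (-0.39 to 0.26) and Gabra6 (-0.064 to 1.16). The causes were not tested.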
